A study of Caenorhabditis elegans with 15 samples.

Results

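The 10 genes described here act in the PIWI-interacting RNA (piRNA) and secondary small interfering RNA (siRNA) pathways or build the P granules of the germline. They were *prg-1*, *hrde-1*, *wago-1*, *csr-1*, *deps-1*, *mut-16*, *glh-1*, *pgl-1*, *pgl-3* and *znfx-1*, taken by name from the gene symbols that the deposited tables pair with gene IDs. All 10 were found among the 21882 genes of the count tables. They were followed through all 15 libraries of polyadenylated RNA from whole young adult *Caenorhabditis elegans*. These genes and the gene lists used below were chosen with earlier results of these data known. Their counts and medians beside those of all genes are therefore descriptive. The groups were *fbxa-215(syb4404)* mutants at 25 °C (3 libraries), wild-type N2 at 25 °C (4 libraries), *fbxa-215(syb4404)* mutants at 20 °C (4 libraries) and N2 at 20 °C (4 libraries). The mutants are 1 strain, SX3678, with 1 allele of *fbxa-215*, an F-box gene with a transposase-derived domain, outcrossed 4 times to N2. Both strains were raised at 20 °C before synchronization, and the larvae were then grown for about 36 h at 25 °C or for 48 h at 20 °C. Temperature, time after plating and growth batch therefore cannot be told apart.

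As background, piRNAs are germline small RNAs that are loaded onto a Piwi Argonaute and guide it to transcripts with matching sequence. Targeting recruits RNA-dependent RNA polymerases, which copy the transcript into secondary siRNAs, and these are bound by further Argonautes in the cytoplasm or the nucleus. Much of this takes place in perinuclear germ granules, which comprise P granules, Mutator foci and Z granules. Loss of several of these factors is known to reduce fertility at high temperature.

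Coordinates below are those of WBcel235 with its Ensembl annotation. The Piwi Argonaute gene *prg-1* (WBGene00004178) lies on chromosome I at 7585329 to 7588367 on the minus strand. The genes of the Argonautes that bind secondary siRNAs are *hrde-1* (WBGene00007624, chromosome III, 4172337 to 4176159, minus strand), *wago-1* (WBGene00011061, chromosome I, 7235384 to 7238792, plus strand) and *csr-1* (WBGene00017641, chromosome IV, 7957267 to 7962157, plus strand). The siRNA amplification and inheritance genes are *mut-16* (WBGene00003508, chromosome I, 10080159 to 10085765, plus strand) and *znfx-1* (WBGene00014208, chromosome II, 9213658 to 9223153, plus strand). The P granule genes are *deps-1* (WBGene00022034, chromosome I, 506473 to 509056, plus strand), *glh-1* (WBGene00001598, chromosome I, 6854478 to 6857536, plus strand), *pgl-1* (WBGene00003992, chromosome IV, 6974441 to 6977318, minus strand) and *pgl-3* (WBGene00003994, chromosome V, 4755979 to 4758587, plus strand). All 10 are annotated as protein coding. Exons of *prg-1*, *csr-1* and *deps-1* share 12, 438 and 109 bp with the neighbouring genes *D2030.12*, *frpr-10* and *Y65B4BL.7*. *frpr-10* lies on the same strand as *csr-1*, the other neighbours lie on the opposite strand, and the libraries did not keep strand, so reads from these shared stretches cannot be told apart. The neighbours had at most 60, 8 and 56 counts in any library.

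Library totals ranged from 10842744 to 28391866 estimated counts, and 3 counts corresponded to between 0.103 and 0.277 CPM (counts scaled to a common library total). The mutated gene *fbxa-215* had 0 to 2 counts in the mutant libraries and 1364 to 2297 counts in the N2 libraries, which matches the labels. Replicate 4 of the mutants at 20 °C was the deepest library. It stood apart from the other 3 in several of the 10 genes, as did replicate 1 of the mutants at 25 °C, and their effect is given beside the results. The paper's methods call the replicates of its RNA sequencing biological. Neither they nor the labels say whether replicates were separate cultures, so p-values measure the spread between these libraries, which may be partly technical. In RNA from whole animals, fewer cells of a type and less RNA per cell cannot be told apart.

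All 10 genes were well above the detection floor in every library. Levels between genes were compared as CPM per kilobase of annotated exon. In N2 at 20 °C, *wago-1* was highest at 216 ± 15.1 CPM per kb (SD, n = 4, as for the values that follow), then *pgl-1* at 181 ± 9.83, *glh-1* at 168 ± 20.0, *csr-1* at 136 ± 6.14 and *hrde-1* at 136 ± 13.8 CPM per kb. Below these came *deps-1* at 109 ± 9.42, *pgl-3* at 106 ± 4.11 and *prg-1* at 81.6 ± 2.92 CPM per kb, and *mut-16* at 33.2 ± 5.68 and *znfx-1* at 16.8 ± 0.303 CPM per kb were lowest. The neighbours *pgl-1* and *glh-1*, *csr-1* and *hrde-1*, and *deps-1* and *pgl-3* differed by less than the larger of their SDs. Together the 10 genes took 2515 ± 112 CPM in mutants (SD, n = 3) and 2898 ± 108 CPM in N2 (SD, n = 4) at 25 °C. At 20 °C they took 3183 ± 93.1 CPM in mutants and 3486 ± 81.4 CPM in N2 (SD, n = 4 each). The summed level was thus lower in every mutant library than in any N2 library of the same temperature.

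**Figure D1:**
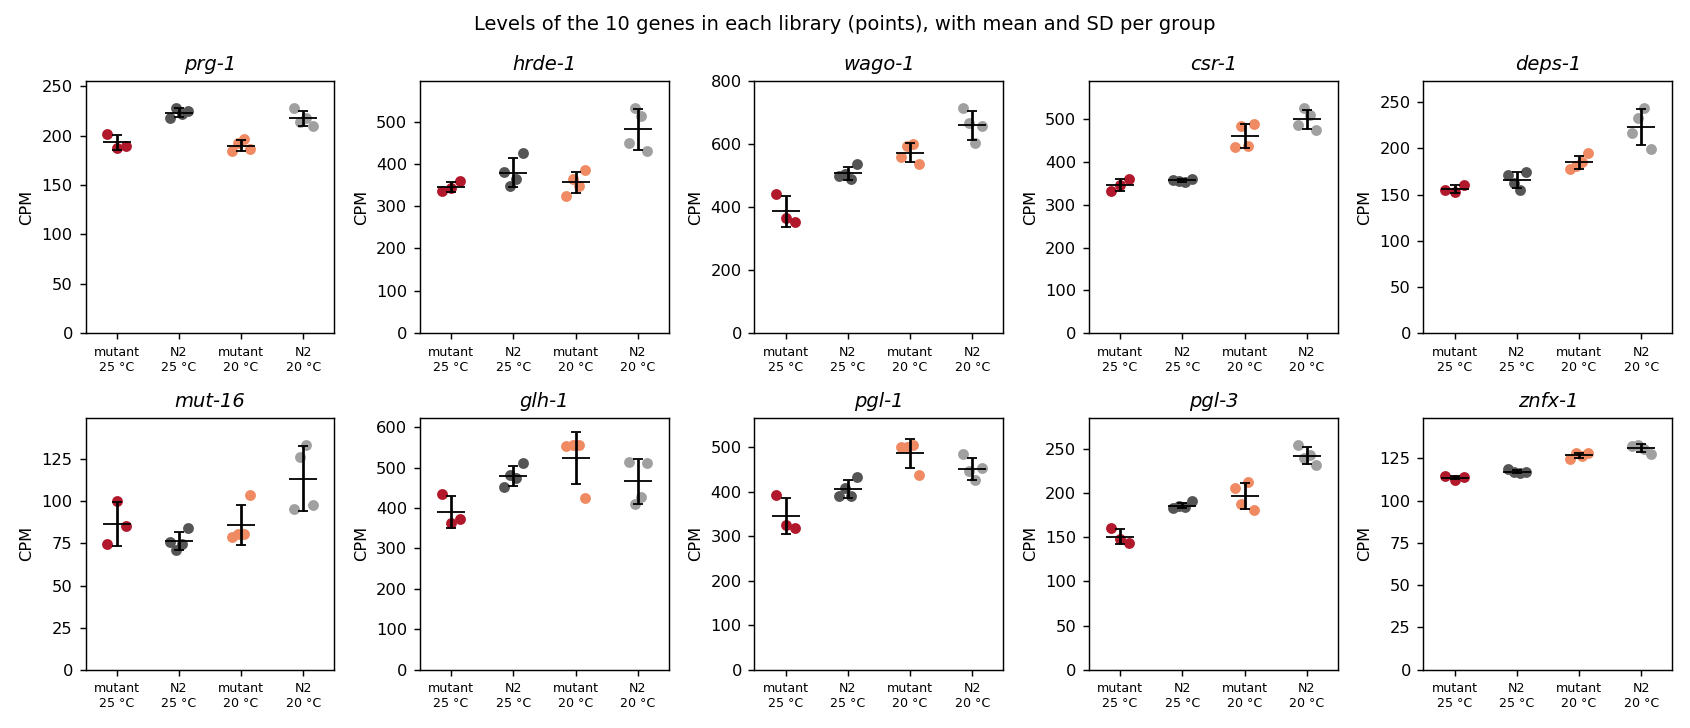
Level of each of the 10 genes in CPM (vertical axes, from 0) in every library (points), by strain and temperature. Horizontal bars and whiskers are the group mean and SD (n = 3 for mutants at 25 °C, 4 for the other groups), and no mutant library of *pgl-3* reaches an N2 library of the same temperature.

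The strains were compared within each temperature. At 25 °C, 4 of the 10 genes (*prg-1*, *wago-1*, *glh-1* and *pgl-3*) were lower in the mutants at a false discovery rate (FDR) under 0.05 and none was higher, where 5.12% of all 13510 genes tested were lower and 6.97% higher. At 20 °C, 4 genes (*prg-1*, *hrde-1*, *deps-1* and *pgl-3*) were lower and none was higher, where 5.77% of all 13127 genes tested were lower and 7.71% higher. With DESeq2, 6 passed at 20 °C, all lower (*wago-1* and *mut-16* in addition). Of all 13127 genes, 1148 were then lower and 1199 higher, 17.9% in either direction. Unless DESeq2 is named, every adjusted p given here is from edgeR's quasi-likelihood test with Benjamini-Hochberg adjustment over all genes tested. No member changed more than 2-fold at either temperature, against 1.92% of all genes at 25 °C and 1.49% at 20 °C that passed both criteria. The median log2 fold change of the 10 genes was -0.17 at 25 °C and -0.18 at 20 °C, against 0.00 and 0.01 over all genes tested. The libraries of the strains did not overlap, with the mutants lower, in 5 genes at 25 °C and in 5 at 20 °C, where 11.2% and 11.4% of all genes tested were apart in this way. *prg-1* and *pgl-3* fell at both temperatures.

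**Figure D2:**
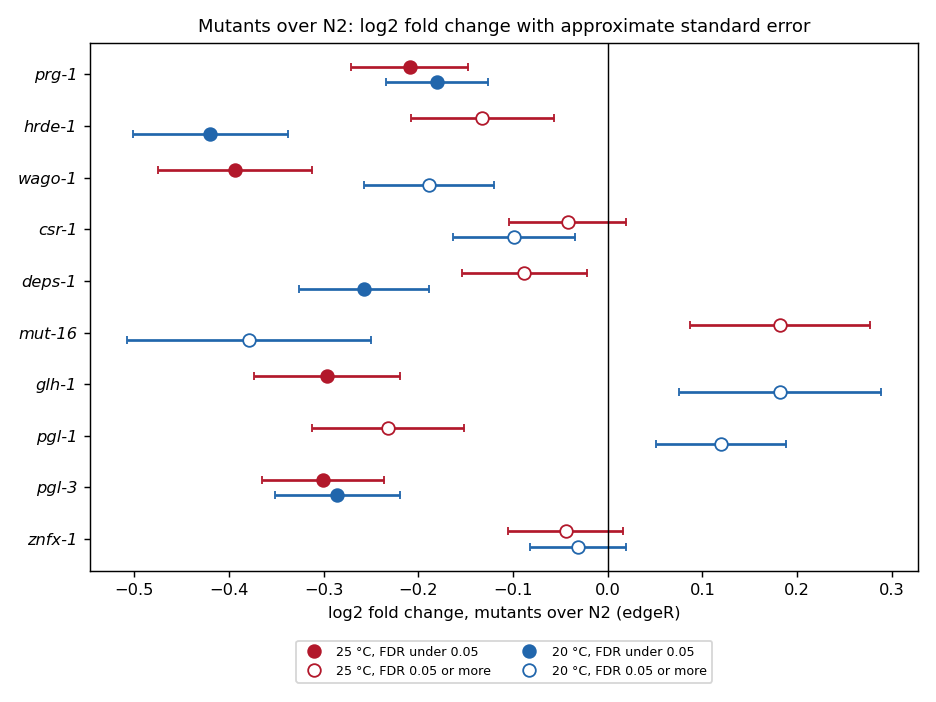
Log2 fold change of mutants over N2 (horizontal axis, with the approximate standard error) for each gene at 25 °C (red) and at 20 °C (blue), with filled points for FDR under 0.05. *prg-1* and *pgl-3* lie at nearly the same place at both temperatures, whereas *mut-16*, *glh-1* and *pgl-1* lie on opposite sides of 0.

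The Piwi Argonaute gene *prg-1* fell by a similar amount at both temperatures. At 25 °C, *prg-1* had 202, 188 and 189 CPM in the mutants, against 218, 228, 222 and 225 CPM in N2. The mutants at 20 °C had 185, 192, 196 and 186 CPM, against 228, 214, 218 and 209.9 CPM in N2. The strains did not overlap at either temperature. The fall was small (log2 fold change -0.21, SE 0.0618, adjusted p = 0.0415 at 25 °C, and log2 fold change -0.18, SE 0.054, adjusted p = 0.0474 at 20 °C). It was close to the threshold: with 1 library left out at a time, it passed only without mutant replicate 1 at 25 °C and only without N2 replicate 4 at 20 °C, and the other such fits reached adjusted p = 0.164 and 0.132.

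The nuclear Argonaute gene *hrde-1*, whose product carries heritable silencing into the germline nucleus, fell at 20 °C. At 25 °C, *hrde-1* had 335, 344 and 358 CPM in the mutants, against 380.1, 347, 364 and 426 CPM in N2. The 20 °C libraries held 325, 365, 349 and 386 CPM in mutants and 449.7, 532, 514 and 431 CPM in N2. At 20 °C all mutant libraries lay below all N2 libraries, whereas at 25 °C the strains overlapped. The difference at 20 °C was the strongest of the 10 genes at that temperature (log2 fold change -0.42, SE 0.0819, adjusted p = 0.0102) and passed with each of the 8 libraries left out. At 25 °C it did not pass (log2 fold change -0.13, SE 0.0756, adjusted p = 0.257).

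*wago-1* encodes a cytoplasmic Argonaute of P granules that binds secondary siRNAs. At 25 °C, *wago-1* had 442, 366 and 351 CPM in the mutants, against 499, 506, 489 and 536 CPM in N2. At 20 °C it had 558, 595, 600.2 and 538 CPM in the mutants, against 714, 666, 602 and 657 CPM in N2. The strains did not overlap at either temperature, although mutant replicate 3 and N2 replicate 3 at 20 °C differed by less than 2 CPM. The gene fell at 25 °C (log2 fold change -0.39, SE 0.0812, adjusted p = 0.0089) and did not pass at 20 °C (log2 fold change -0.19, SE 0.0686, adjusted p = 0.0846), where it passed with DESeq2 (adjusted p = 0.0363). At 25 °C mutant replicate 1 lay nearest to N2, and the call was lost without mutant replicate 2 (log2 fold change -0.36, adjusted p = 0.0579).

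*csr-1* encodes the Argonaute whose siRNAs match germline-expressed genes and which is known to protect them from silencing. At 25 °C, *csr-1* had 333, 346 and 361 CPM in the mutants, against 359, 356, 353 and 361 CPM in N2. The mutants at 20 °C had 436, 483, 439 and 489 CPM, against 488, 527, 509 and 476 CPM in N2. The strains overlapped at both temperatures, and neither difference passed (-0.04, adjusted p = 0.68 at 25 °C, and -0.10, adjusted p = 0.308 at 20 °C, as log2 fold changes).

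*mut-16* encodes the scaffold of the Mutator foci, in which secondary siRNAs are made. At 25 °C, *mut-16* had 74.4, 100.3 and 85.3 CPM in the mutants, against 75.9, 71.1, 74.6 and 84.1 CPM in N2. The 20 °C libraries held 79.1, 80.7, 80.6 and 104 CPM in mutants and 95.6, 126, 134 and 98.1 CPM in N2. The libraries of a group were spread widely, with coefficients of variation between 7.21% and 17.1%, and the strains overlapped at both temperatures. The gene did not pass at 25 °C (log2 fold change 0.18, SE 0.0953, adjusted p = 0.222) or at 20 °C (log2 fold change -0.38, SE 0.129, adjusted p = 0.0742), and the estimates had opposite signs. It passed at 25 °C, as higher, without mutant replicate 1 (0.28, adjusted p = 0.0216) and at 20 °C, as lower, without mutant replicate 4 (-0.48, adjusted p = 0.0266). At 20 °C it also passed, as lower, with DESeq2 (adjusted p = 0.0307) and in 1 fit over all 15 libraries (adjusted p = 0.0345).

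*znfx-1* encodes a helicase of the Z granules that is needed for inheritance of silencing. At 25 °C, *znfx-1* had 114, 112 and 114 CPM in the mutants, against 118.6, 117, 116 and 117 CPM in N2. At 20 °C it had 125, 128, 126 and 128 CPM in the mutants, against 132, 133, 131 and 128 CPM in N2. It was the steadiest of the 10 genes, with coefficients of variation between 0.917% and 1.81%. The 3 mutant libraries at 25 °C lay below all N2 libraries, by less than 2 CPM at the nearest, while those at 20 °C overlapped. Neither difference passed (-0.04, adjusted p = 0.661 at 25 °C, and -0.03, adjusted p = 0.694 at 20 °C).

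Among the P granule genes, *deps-1* encodes a protein needed for P granule assembly. At 25 °C, *deps-1* had 155, 153 and 160.2 CPM in the mutants, against 171, 162, 155 and 174 CPM in N2. The mutants at 20 °C had 178, 181, 185 and 195 CPM, against 217, 233, 244 and 199 CPM in N2. The strains overlapped at 25 °C and did not overlap at 20 °C, where mutant replicate 4 and N2 replicate 4 lay nearest to each other. It fell at 20 °C (log2 fold change -0.26, SE 0.0691, adjusted p = 0.0326) and did not pass at 25 °C (log2 fold change -0.09, SE 0.0657, adjusted p = 0.392). With 1 library left out at 20 °C, it still passed without mutant replicate 4 or N2 replicate 4, and in the other 6 fits the adjusted p lay between 0.0526 and 0.097.

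*glh-1* encodes the Vasa-like helicase of P granules. At 25 °C, *glh-1* had 436, 363 and 372 CPM in the mutants, against 451, 483, 474 and 510.1 CPM in N2. The 20 °C libraries held 553, 556, 557 and 426 CPM in mutants and 515, 409, 428 and 512 CPM in N2. The mutant libraries at 25 °C all lay under those of N2, and at 20 °C the strains overlapped, with 3 of 4 mutant libraries above all N2 libraries. It fell at 25 °C (log2 fold change -0.30, SE 0.0769, adjusted p = 0.0255) and did not pass at 20 °C, where the estimate was positive (log2 fold change 0.18, SE 0.107, adjusted p = 0.26). The call at 25 °C was lost when N2 replicate 2 (adjusted p = 0.0608) or 4 (0.0676), or mutant replicate 2 (0.13) or 3 (0.102), was left out.

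*pgl-1* and *pgl-3* encode related scaffold proteins that P granules are built on. At 25 °C, *pgl-1* had 392, 326 and 318 CPM in the mutants, against 389, 409, 391 and 434 CPM in N2. At 20 °C it had 500.0, 499.9, 505 and 438 CPM in the mutants, against 484, 445, 425 and 452 CPM in N2. Neither difference in *pgl-1* passed (log2 fold change -0.23, SE 0.0805, adjusted p = 0.0746 at 25 °C, and log2 fold change 0.12, SE 0.0687, adjusted p = 0.248 at 20 °C), and the strains overlapped at both temperatures. Without mutant replicate 1, *pgl-1* passed at 25 °C as lower (-0.33, adjusted p = 0.00176).

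At 25 °C, *pgl-3* had 161, 148 and 144 CPM in the mutants, against 184, 185, 184 and 190.5 CPM in N2. The mutants at 20 °C had 205, 187, 213 and 181 CPM, against 255, 239, 243 and 232 CPM in N2. The strains did not overlap at either temperature. *pgl-3* fell at 25 °C (log2 fold change -0.30, SE 0.0646, adjusted p = 0.0106) and at 20 °C (log2 fold change -0.29, SE 0.0663, adjusted p = 0.0201). The call was lost at 25 °C when mutant replicate 2 (adjusted p = 0.059) or 3 (0.0533) was left out, and at 20 °C when N2 replicate 1 (0.0504) or mutant replicate 2 (0.0719) was.

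The balance of the *pgl* genes was also set out within each library, as the per-length level of *pgl-1* over that of *pgl-3*. This ratio, chosen after the values were seen and not tested, was 2.24, 2.02 and 2.03 in mutants and 1.94, 2.03, 1.95 and 2.09 in N2 at 25 °C. At 20 °C it was 2.23, 2.45, 2.18 and 2.22 in mutants and 1.74, 1.71, 1.61 and 1.79 in N2. The strains overlapped at 25 °C and did not overlap at 20 °C, where the ratio was higher in mutants. It is built from the values above, in which *pgl-3* fell at 20 °C and *pgl-1* did not pass, so it is not a separate result.

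Whether the strain difference itself depended on temperature was tested by the interaction of strain and temperature over all 15 libraries. None of the 10 genes passed with edgeR, against 1.46% of all 14000 genes, while 4 had an unadjusted p under 0.05 (*hrde-1*, *mut-16*, *glh-1* and *pgl-1*), against 24.6% of all genes. With DESeq2, 3 passed (*mut-16*, *glh-1* and *pgl-1*), against 7.54% of all genes. The interaction, the strain difference at 25 °C minus that at 20 °C, was largest for *mut-16* (log2 value 0.57, SE 0.18, adjusted p = 0.084), followed by *glh-1* (-0.46, adjusted p = 0.0752), *pgl-1* (-0.34, adjusted p = 0.0815) and *hrde-1* (0.30, adjusted p = 0.129). For *prg-1*, *pgl-3* and *znfx-1* it lay between -0.01 and 0.00 (SE 0.0737, 0.0901 and 0.0679). With 1 library left out, *mut-16*, *glh-1* and *pgl-1* passed without replicate 4 of the mutants at 20 °C (0.70, -0.53 and -0.37), together with *hrde-1* (0.36), in a fit that called 11.5% of all genes. Without replicate 1 of the mutants at 25 °C, *mut-16*, *glh-1* and *pgl-1* passed (0.64, -0.58 and -0.47), together with *wago-1* (-0.33), and 10.4% of all genes were called. *glh-1* also passed without replicate 1 or replicate 4 of N2 at 20 °C (-0.55 in each case), where 2.96% and 6.9% of all genes were called.

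The temperatures were then compared within each strain. In mutants, 7 of the 10 genes were lower at 25 °C and none was higher, where 11.9% of all 14000 genes were lower and 13.6% higher. In N2, 7 genes were lower and none was higher, where 22.1% of all genes were lower and 23% higher. The libraries of the temperatures did not overlap, with 25 °C lower, in 6 genes in mutants and in 7 in N2, against 13.8% and 20.2% of all genes. The median log2 fold change of the 10 genes was -0.31 in mutants and -0.36 in N2, against 0.04 and 0.07 over all genes. No member passed a 2-fold change, a threshold that 3.17% of all genes passed in mutants and 6.59% in N2. The comparisons shown in the plot of temperature effects share their libraries with those between strains.

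**Figure D3:**
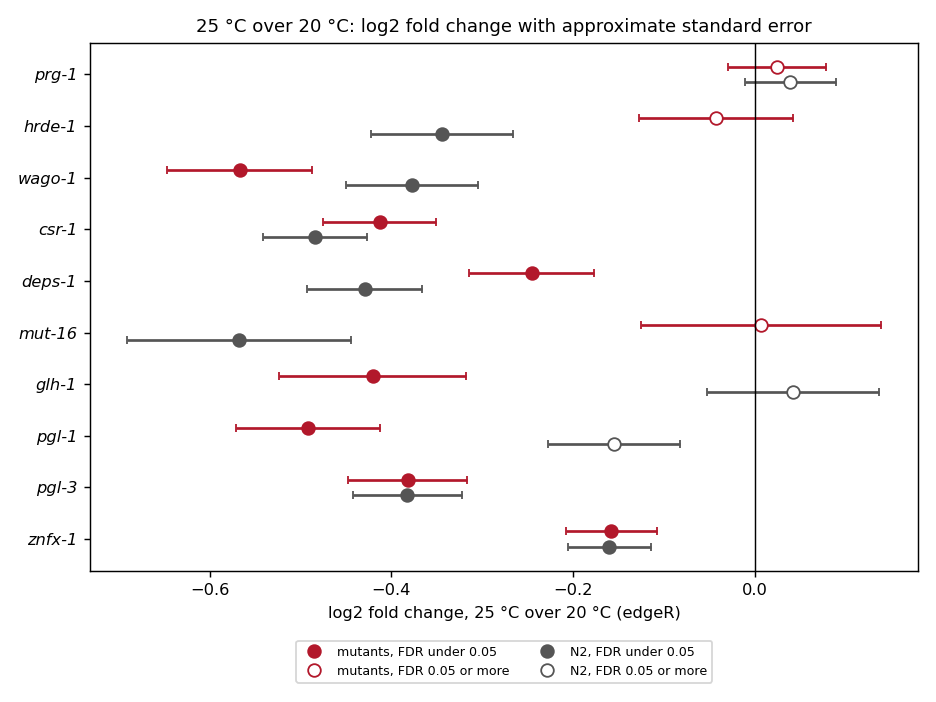
Log2 fold change of 25 °C over 20 °C (horizontal axis, with the approximate standard error) for each gene in mutants (red) and in N2 (grey), with filled points for FDR under 0.05. *prg-1* lies near 0 in both strains, and *wago-1*, *csr-1*, *deps-1*, *pgl-3* and *znfx-1* fell in both.

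*wago-1*, *csr-1*, *deps-1*, *pgl-3* and *znfx-1* fell at 25 °C in both strains. Means are given with the SD (n = 3 for mutants at 25 °C and 4 for the other groups), and values in parentheses are log2 fold changes. *csr-1* averaged 347 ± 14.2 CPM at 25 °C and 462 ± 28.5 CPM at 20 °C in mutants (-0.41, adjusted p = 0.000116), and 357 ± 3.57 CPM at 25 °C and 499.9 ± 22.5 CPM at 20 °C in N2 (-0.48, adjusted p = 4.24e-06). *wago-1* averaged 386 ± 48.5 CPM at 25 °C and 573 ± 30.0 CPM at 20 °C in mutants (-0.57, adjusted p = 6.32e-05), and 508 ± 20.4 CPM at 25 °C and 659.6 ± 46.1 CPM at 20 °C in N2 (-0.38, adjusted p = 0.000493). In both genes the temperatures did not overlap in either strain. *pgl-3* changed by -0.38 in mutants and by -0.38 in N2, and *deps-1* by -0.25 in mutants and -0.43 in N2. *znfx-1* changed least among them, by -0.16 in each strain. In mutants, the call of *znfx-1* was lost without replicate 2 or 3 at 25 °C (adjusted p = 0.0855 and 0.0661) or replicate 2 or 3 at 20 °C (0.0622 and 0.0515), and that of *deps-1* without replicate 2 at 25 °C (0.0609).

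*prg-1* did not pass in either strain (0.02, adjusted p = 0.776 in mutants, and 0.04, adjusted p = 0.547 in N2). It averaged 193 ± 7.77 CPM at 25 °C and 189.9 ± 5.45 CPM at 20 °C in mutants, and 223 ± 4.17 CPM at 25 °C and 217 ± 7.78 CPM at 20 °C in N2. The levels of *prg-1* overlapped between temperatures in each strain and did not overlap between strains at either temperature.

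4 genes passed in 1 strain. *hrde-1* and *mut-16* fell in N2 (-0.34, adjusted p = 0.00181, and -0.57, adjusted p = 0.00163) and did not pass in mutants (-0.04, adjusted p = 0.752, and 0.01, adjusted p = 0.978). *hrde-1* averaged 346 ± 11.7 CPM at 25 °C and 356 ± 25.7 CPM at 20 °C in mutants, and 379 ± 34.3 CPM at 25 °C and 482 ± 49.0 CPM at 20 °C in N2, so that 3 of the group means were near each other and N2 at 20 °C was above them. N2 at 20 °C was likewise highest in *mut-16*, with 86.7 ± 13 CPM at 25 °C and 86.1 ± 11.9 CPM at 20 °C in mutants, and 76.4 ± 5.51 CPM at 25 °C and 113.4 ± 19.4 CPM at 20 °C in N2. *glh-1* and *pgl-1* fell in mutants (-0.42, adjusted p = 0.00626, and -0.49, adjusted p = 0.000222) and did not pass in N2 (0.04, adjusted p = 0.74, and -0.15, adjusted p = 0.0888). *pgl-1* in N2 was close to the threshold and passed, as lower, in 4 of 8 alternatives: with relative log expression factors (-0.19, adjusted p = 0.0437), DESeq2 (-0.19, adjusted p = 0.0362), unrounded counts (-0.18, adjusted p = 0.0481) and the N2 libraries alone (-0.17, adjusted p = 0.0366). *glh-1* averaged 390.4 ± 39.6 CPM at 25 °C and 523 ± 64.7 CPM at 20 °C in mutants, and 479.7 ± 24.3 CPM at 25 °C and 466 ± 55.4 CPM at 20 °C in N2. The difference between strains in these 4 temperature effects is the interaction given above, which did not pass for any of them over all libraries with edgeR.

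Libraries of the same group also differed from each other in the 10 genes, and some genes moved together in this. The deviation of a library was taken as its log2 CPM minus the mean of its group. *glh-1* and *pgl-1* deviated to the same side in 15 of 15 libraries, and so did *hrde-1* and *csr-1*. *mut-16* and *glh-1* deviated to opposite sides in all 8 libraries at 20 °C and in 11 of 15 in all, as did *mut-16* and *pgl-1*. In replicate 4 of the mutants at 20 °C, *mut-16* was 0.28 above and *glh-1* 0.29 below the group mean on the log2 scale. In N2 at 20 °C, *mut-16* was above the mean in replicates 2 and 3 (0.17 and 0.25), in which *glh-1* was below it (by 0.18 and 0.11), and replicates 1 and 4 had the reverse. These N2 libraries split the same way over all genes with enough counts. The mean chi-square per gene was 5.98 between replicates 2 and 3 and 5.25 between replicates 1 and 4, against 14.7 to 19.4 for the other pairs. These pairs of genes were picked after all 45 pairs had been counted, the libraries share their group means, and no test was made.

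**Figure D4:**
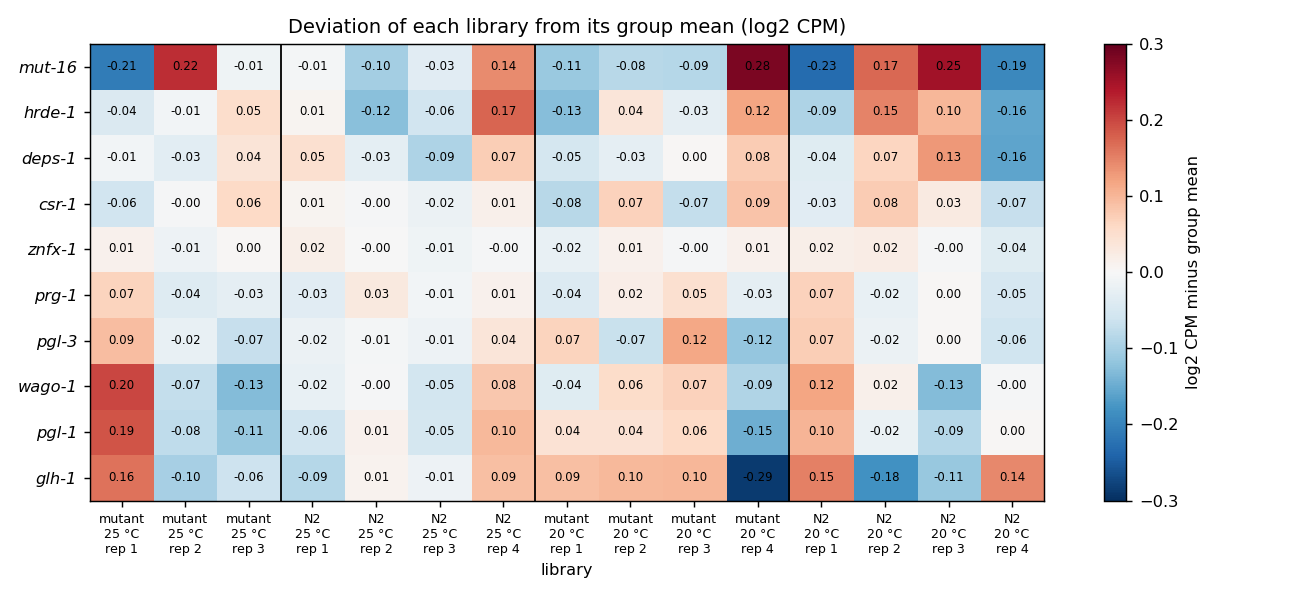
Deviation of each library (columns, grouped by strain and temperature) from its group mean for each gene (rows), as log2 CPM, with the value in each cell and red for above the mean. *glh-1* and *pgl-1* have the same sign in all 15 libraries, and *mut-16* and *glh-1* have opposite signs in all 8 libraries at 20 °C.

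The other genes of these pathways were taken from 4 lists (piRNA biogenesis, secondary siRNA synthesis, other Argonautes and nuclear RNAi, and other germ granule genes), of which 62 genes were tested. As above, means are given with the SD (n = 3 for mutants at 25 °C and 4 for the other groups) and the values beside an adjusted p are log2 fold changes. At 25 °C, 5 were lower in mutants and 2 higher, where 5.12% of all genes tested were lower and 6.97% higher. The median log2 fold change was -0.07. At 20 °C, 13 were lower and none higher, a median of -0.19, where 5.77% of all genes tested were lower and 7.71% higher. These shares also apply to the counts from the separate lists below. The medians over all genes tested were 0.00 and 0.01. The counts depended on single libraries. At 25 °C there were 20 called genes without mutant replicate 1, a fit that called 25.5% of all genes. There were 4 without N2 replicate 3 and 2 without each of the other 5 libraries, with 3.44% to 9.09% of all genes called in these 6 fits. At 20 °C there were 24 without N2 replicate 4, where 16.9% of all genes were called, 8 if N2 replicate 2 or 3 was left out, 7 if mutant replicate 1 was, and 6 if mutant replicate 2 was. Apart from the fit without N2 replicate 4, those at 20 °C called 4.38% to 13.8% of all genes.

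Of 21 other germ granule genes, 2 were lower in mutants at 25 °C and 9 at 20 °C. At 25 °C these included *glh-4*, a further Vasa-like helicase gene, with 126 ± 5.89 CPM in mutants and 175 ± 13.8 CPM in N2 (-0.47, adjusted p = 0.00184), and *pid-2*, a factor of piRNA silencing, with 27.3 ± 1.43 CPM in mutants and 37.9 ± 3.78 CPM in N2 (-0.47, adjusted p = 0.0102). At 20 °C they included *meg-1* and *meg-3*, which encode disordered proteins of embryonic P granules. *meg-1* had 75.8 ± 9.11 CPM in mutants and 131 ± 22.3 CPM in N2 (-0.77, adjusted p = 0.00551), and *meg-3* had 36.1 ± 2.89 CPM in mutants and 53.8 ± 6.01 CPM in N2 (-0.56, adjusted p = 0.00542). With 1 library left out at a time, *glh-4*, *meg-1* and *meg-3* passed in every fit and *pid-2* in 6 of 7.

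Of 13 genes on the piRNA biogenesis list, 2 were lower at 25 °C and 1, *tost-1*, at 20 °C. *tofu-6*, a subunit of the complex that processes piRNA precursors, had 52.8 ± 2.16 CPM in mutants and 63.9 ± 1.07 CPM in N2 at 25 °C (-0.27, adjusted p = 0.0243), and *henn-1*, which encodes the methyltransferase that protects piRNA ends, had 30.2 ± 5.97 CPM in mutants and 40.7 ± 0.697 CPM in N2 (-0.43, adjusted p = 0.0255). *tost-1* is counted here as a partner of the same complex, and a part of its own in making piRNAs is not implied. It had 53.1 ± 3.01 CPM in mutants and 68.2 ± 9.28 CPM in N2 at 20 °C (-0.34, adjusted p = 0.0359). These calls depended on single libraries. With 1 left out, *henn-1* passed only without mutant replicate 1 (adjusted p up to 0.114 in the others), *tofu-6* only without mutant replicate 1 or N2 replicate 3 (up to 0.0921), and *tost-1* in 3 of 8 fits, those without mutant replicate 4 or N2 replicate 1 or 4 (up to 0.101).

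Of 16 genes of secondary siRNA synthesis, *mut-14*, an RNA helicase gene of the Mutator foci, was lower at 25 °C (-0.31, adjusted p = 0.0336) and *rde-11*, an siRNA amplification factor, was higher (0.36, adjusted p = 0.0468). At 20 °C *nyn-2*, a putative ribonuclease gene, was lower (-0.42, adjusted p = 0.0103) and the other 15 did not pass. Of 12 tested genes for other Argonautes and nuclear RNAi, *wago-10* was higher at 25 °C at a low level, with 9.09 ± 1.65 CPM in mutants and 5.78 ± 0.767 CPM in N2 (0.65, adjusted p = 0.0252). At 20 °C the nuclear Argonaute gene *nrde-3* (-0.52, adjusted p = 0.0165) and *ppw-1*, an Argonaute gene needed for germline RNAi (-0.29, adjusted p = 0.0207), were lower. With 1 library left out at 25 °C, *mut-14* and *rde-11* passed only without mutant replicate 1 (adjusted p up to 0.137 and 0.217 in the others), and *wago-10* passed in 3 of 7 fits, those without mutant replicate 1 or 2 or N2 replicate 3 (up to 0.0754). At 20 °C *nyn-2* passed in 8 of 8 such fits. *nrde-3* was lost without mutant replicate 1 or 2 (up to 0.0579), and *ppw-1* without those or N2 replicate 2 or 3 (up to 0.0705).

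**Figure D5:**
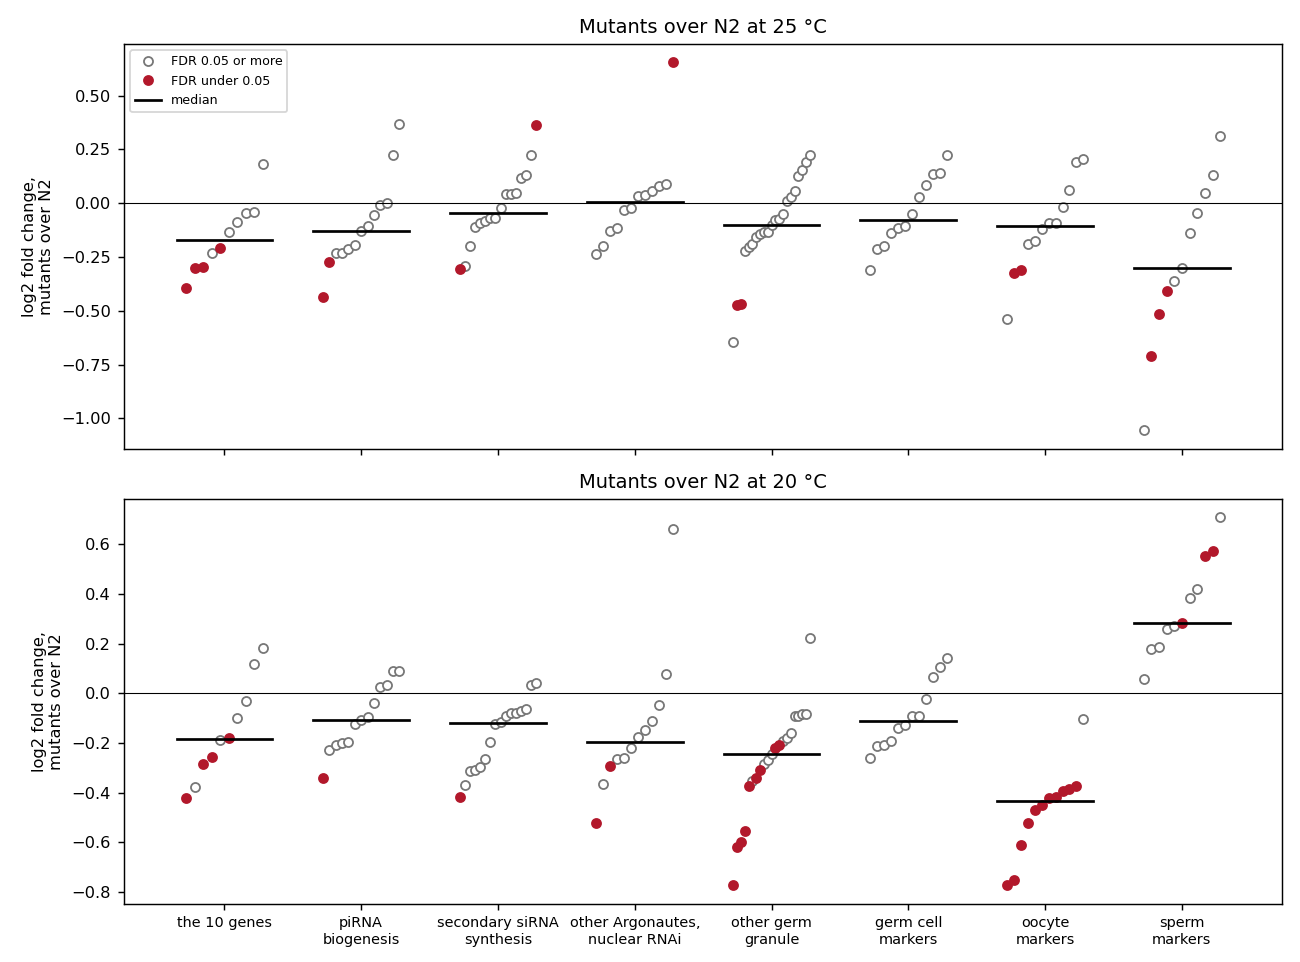
Log2 fold change of mutants over N2 (vertical axes) at 25 °C (upper plot) and 20 °C (lower plot) for each tested gene (points) of the 10 genes, the 4 pathway lists and 3 marker lists, with red for FDR under 0.05 and a bar at the median. The oocyte markers have 11 of 12 genes lower at 20 °C and 2 of 12 at 25 °C, and no germ cell marker passed at either temperature.

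Markers of germline cell types were measured beside these genes. At 25 °C, 2 of 12 oocyte markers and 3 of 11 tested sperm markers were lower in mutants, and 4 of 7 muscle markers were higher. The 3 sperm markers were all *msp* genes (*msp-3*, *msp-113* and *msp-142*), and the other tested sperm markers did not pass. Of all genes tested, 5.12% were lower and 6.97% higher. The summed level of the oocyte markers was 4549 to 4956 CPM in mutants and 4827 to 5920 CPM in N2 at 25 °C. At 20 °C, 11 of 12 oocyte markers were lower and 3 of 11 tested sperm markers were higher, where 5.77% of all genes tested were lower and 7.71% higher. The oocyte markers summed to 5417 to 5716 CPM in mutants and 7034 to 8619 CPM in N2 at 20 °C. The summed sperm markers were 527 to 673 CPM in mutants and 674 to 804 CPM in N2 at 25 °C, and 593 to 767 CPM in mutants and 501 to 693 CPM in N2 at 20 °C. None of 12 markers of germ cells and meiosis passed at either temperature. They summed to 1654 to 1859.5 CPM in mutants and 1587 to 1720.4 CPM in N2 at 25 °C, and 1835 to 2093 CPM in mutants and 1932 to 2463 CPM in N2 at 20 °C. Zygotic genes of early embryos, as a sign of embryos carried by the adults, summed to between 5.07 and 11.7 CPM in any library. Most of this came from *elt-7*, a regulator of intestinal genes, with a mean of 103 counts per library against at most 3.2 for any of the other 9. *elt-7* was higher at 25 °C in both strains (log2 fold change 0.89 in mutants and 0.80 in N2). The oocyte markers therefore moved with the strain at 20 °C, together with 4 of the 10 genes and 13 pathway genes, and their part in these results was not tested.

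With temperature, 22 of the 62 pathway genes were lower and 3 higher at 25 °C in mutants, where 11.9% of all genes tested were lower and 13.6% higher. In N2, 38 were lower and 4 higher, where 22.1% of all genes tested were lower and 23% higher. The genes for PETISCO subunits *tofu-6* and *pid-3*, which act on piRNA precursors, fell in both strains, *tofu-6* by 0.53 in mutants and by 0.48 in N2, and *pid-3* by 0.48 in mutants and by 0.39 in N2 on the log2 scale. *wago-4*, an Argonaute gene of siRNA inheritance, fell likewise (-0.48, adjusted p = 4.04e-05 in mutants, and -0.54, adjusted p = 1.99e-06 in N2). So did the RNA-dependent RNA polymerase gene *ego-1* (-0.36 in mutants and -0.24 in N2) and its cofactor *ekl-1* (-0.31 in mutants and -0.17, adjusted p = 0.0399 in N2), although *ekl-1* in N2 passed in 1 of 8 fits with a library left out (adjusted p up to 0.144). The Dicer-related helicase gene *drh-3* (-0.36 in mutants and -0.54 in N2) and the germ granule genes *glh-2* (-0.60 in mutants and -0.50 in N2), *mip-2* (-0.42 in mutants and -0.49 in N2) and *meg-3* (-0.42 in mutants and -0.91 in N2) fell in both strains as well. The nuclear RNAi gene *nrde-1* fell in mutants (-0.22) and did not pass in N2 (-0.13, adjusted p = 0.0856). The nucleotidyltransferase gene *mut-2*, *nrde-3* and the germ granule gene *car-1* fell in N2 (-0.56, -0.74 and -0.59) and did not pass in mutants (-0.20, -0.22 and -0.17, adjusted p = 0.206, 0.166 and 0.0853).

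*sago-1* and *sago-2*, which encode Argonautes known for RNAi in somatic tissue, rose in both strains. *sago-2* averaged 19.8 ± 3.53 CPM at 25 °C and 7.63 ± 1.13 CPM at 20 °C in mutants (1.36, adjusted p = 0.000164), and 18.7 ± 6.14 CPM at 25 °C and 10.02 ± 0.905 CPM at 20 °C in N2 (0.90, adjusted p = 0.00135). *sago-1* averaged 69.8 ± 4.75 CPM at 25 °C and 48.6 ± 2.88 CPM at 20 °C in mutants (0.52, adjusted p = 7.20e-05), and 67.1 ± 1.65 CPM at 25 °C and 53.1 ± 4.36 CPM at 20 °C in N2 (0.34, adjusted p = 0.000793). The shares of all genes given beside the pathway genes with temperature apply to the markers too. Among the markers, 6 of 12 oocyte markers were lower at 25 °C and 7 of 7 muscle markers higher in mutants, and 11 of 12 oocyte markers were lower and 7 of 11 tested sperm markers higher in N2. The muscle markers had 1 of 7 higher in N2. Of 9 intestine markers, 1 was lower and 1 higher in mutants, and 4 were lower (*vit-1*, *vit-3*, *vit-4* and *vit-5*, which encode yolk proteins) and 2 higher (*elt-2* and *ges-1*) in N2. Of 7 neuron markers, 4 were higher in mutants (*rab-3*, *egl-21*, *ric-19* and *sbt-1*) and 4 in N2 (*unc-64*, *egl-21*, *ric-19* and *sbt-1*), and none of 6 hypodermis markers passed in either strain. Of the 12 germ cell markers, 3 were lower and 1 higher in mutants and 5 were lower in N2. The part of these markers in the temperature differences was not tested.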

How the data were processed

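Polyadenylated RNA of whole young adults was sequenced as paired reads with no strand kept. The authors trimmed the reads with Trimmomatic (0.39) and quantified them with salmon (1.5.1), and the deposited tables hold estimated counts per gene, which are not normalized. The submitters' processing notes name WBcel235, and the transcript release is not given in the sources used here. Further tables that the authors deposited hold the results of their DESeq2 comparison, which were not used, and log2 expression values per library, which entered no result. Only their gene symbols were taken. All columns belonged to a labelled sample (0 did not). Embryo libraries were not analysed here.

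The estimated counts, 91.1% of which were whole numbers, were rounded and tested with edgeR (4.0.16) in R (4.3.3), with TMM factors, filterByExpr (minimum count 10, minimum total 15), robust dispersions and quasi-likelihood F-tests. Strains were compared within each temperature, over 8 libraries at 20 °C and 7 at 25 °C. Temperatures and the interaction came from 1 fit over 15 libraries with a coefficient per group. P-values were adjusted by the Benjamini-Hochberg method over all genes tested, and a gene passed at an FDR under 0.05. Standard errors (SE) are the size of a log2 fold change over the square root of F, and so approximate. CPM used TMM-scaled totals over all 15 libraries. Totals of 10842744 to 28391866 counts set the precision. The closest replicate pair differed by more than sampling noise (mean chi-square per gene 4.03), so no library was counted as a duplicate. The scripts were tested on simulated counts.

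The members and the gene lists were chosen with earlier results of these data known. Of 141 list genes, 138 matched (*slfl-3*, *slfl-4* and *cde-1* did not). The text names all 10 members, *fbxa-215* and, from each pathway list and comparison, up to 2 genes per direction with the smallest FDR under 0.05 and a mean of at least 50 counts. Lists are described by counts and medians. Marker lists for intestine, muscle, hypodermis and neurons were measured as well, and the shares of all genes given for the strain comparisons apply to them. At 25 °C, 1 of 9 intestine markers was lower and 2 higher in mutants, 4 of 7 muscle markers were higher, 0 of 6 hypodermis markers passed, and 2 of 7 neuron markers were higher. At 20 °C, 3 intestine markers were lower and 1 higher, 2 muscle markers and 1 neuron marker were higher, and 0 of 5 tested hypodermis markers passed. Alternatives were other size factors, other filters, DESeq2 (1.42.0), unrounded counts, a replicate block, other sets of libraries in the fit and each library left out.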

Additional observations from a re-analysis of the deposited data

Results flagged for a closer look

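Replicate 4 of the mutants at 20 °C lay far from the other 3 libraries of its group in 3 of 30 checks of a gene in a group of 4. Chance alone marks about 1 in 20 single checks. The 3 marked checks came from 1 library and from genes that moved together, so they cannot show an excess over chance. *mut-16* had 104 CPM in that library, above the other 3, *glh-1* had 426 CPM and *pgl-1* 438 CPM, both below the other 3. It was also the deepest library (28391866 counts), and the part of depth in this was not tested.

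The strain difference of 3 other pathway genes differed between temperatures by the interaction test of edgeR's quasi-likelihood model. The interaction was 0.58 for *tost-1* (adjusted p = 0.0354), 0.84 for *meg-1* (adjusted p = 0.0309) and 0.42 for *car-1* (adjusted p = 0.0414), on the log2 scale as the difference at 25 °C minus that at 20 °C. *meg-1* averaged 66.0 ± 5.72 CPM in mutants (SD, n = 3) and 63.5 ± 6.70 CPM in N2 (SD, n = 4) at 25 °C, and 75.8 ± 9.11 CPM in mutants and 131 ± 22.3 CPM in N2 at 20 °C (SD, n = 4 each). With 1 of the 15 libraries left out, the interaction passed in 5 fits for *tost-1*, in 7 for *meg-1* and in 4 for *car-1*, with adjusted p up to 0.125, 0.12 and 0.125.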

How the results depend on the processing

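Library size alone as scaling gave 2 called members for the strains at 20 °C, and it moved the calls over all genes to 484 lower and 1060 higher at 20 °C (757 and 1012 with TMM), to 1235 and 2341 in mutants with temperature (1668 and 1905), and to 2283 and 3826 in N2 (3092 and 3218), where the median log2 fold change of all genes was 0.14. A fold change above 2 left 0 called members in each comparison, and for the pathway genes 0 between strains at 25 °C and at 20 °C, 1 with temperature in mutants, 3 in N2 and 0 for the interaction. DESeq2 called 6 members (adding *wago-1* and *mut-16*) and 23 pathway genes for the strains at 20 °C, against 17.9% of all genes. For the interaction it called 3 members and 13 pathway genes, against 7.54% of all genes. One fit over 15 libraries called 27 pathway genes at 20 °C and added *mut-16*, where 19.6% of all genes were called (13.5% in the main fit). At least 10 counts in every library gave 5 pathway genes for the interaction, where 2.88% of all genes were called (1.46% in the main fit).

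Same-numbered replicates correlated between -0.35 and 0.23 in their deviations, which did not show pairing. With so few libraries per group, and labels that do not say, these correlations cannot tell whether the numbers mark a shared batch. With the replicate block, 0 members and 1 pathway gene were called at 25 °C, 1 member and 3 pathway genes at 20 °C, and 0 pathway genes for the interaction, while members with temperature numbered 6 in mutants and 7 in N2. Of all genes, the block called 2.89% at 25 °C and 4.02% at 20 °C, against 12.1% and 13.5% without it. For the interaction it called 0.143%, against 1.46%. With temperature it called 22.1% in mutants and 42.4% in N2, against 25.5% and 45.1%.

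Over 8 alternatives other than the 2-fold threshold and left-out libraries, *hrde-1* at 20 °C passed in 8, *pgl-3* in 7 at each temperature, *wago-1* in 7 and *glh-1* in 6 at 25 °C, *deps-1* in 6 at 20 °C, and *prg-1* in 5 at 25 °C and 4 at 20 °C. The temperature calls passed in 8 of 8 except *znfx-1*, with 6 in mutants and 7 in N2. Genes that did not pass gained a call in 4 of these 8 for *pgl-1* with temperature in N2, in 2 for *mut-16* and 1 for *wago-1* at 20 °C, in 1 for *pgl-1* at 25 °C (every gene with at least 1 count), and for *mut-16*, *glh-1* and *pgl-1* in the interaction with DESeq2.

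With 1 library left out, called members ranged from 0 to 6 at 25 °C, 1 to 4 at 20 °C, 5 to 7 with temperature in mutants, 7 in N2 and 0 to 4 for the interaction. Called pathway genes ranged from 2 to 20 at 25 °C, 6 to 24 at 20 °C, 22 to 29 in mutants, 37 to 45 in N2 and 0 to 16 for the interaction. The share of all genes called in these fits also moved, from 3.44% to 25.5% at 25 °C and from 4.38% to 16.9% at 20 °C. With temperature it ranged from 14.7% to 28.4% in mutants and 38.1% to 45.2% in N2, and for the interaction from 0.0845% to 11.5%.

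Directions reversed only for values near 0 that did not pass. For 25 °C over 20 °C in mutants, *prg-1* was -0.0044 with relative log expression factors, -0.012 without a filter, -0.0041 with DESeq2 and -0.0021 in mutants alone. There *mut-16* was -0.022, -0.030, -0.021 and -0.019 under these settings and -0.0022 unrounded, and *hrde-1* was 0.012 by library size alone. For the interaction, *prg-1* was 0.0042 unrounded, *pgl-3* was -0.012 by library size alone, -0.046 without a filter and -0.016 with the replicate block, and *znfx-1* was -0.012, -0.043 and -0.00091. With 1 library left out, the temperature difference of *prg-1* ranged from -0.038 to 0.041 in mutants and -0.00046 to 0.069 in N2, that of *mut-16* in mutants from -0.12 to 0.11 and that of *glh-1* in N2 from -0.047 to 0.10, and the interaction ranged from -0.081 to 0.025 for *prg-1*, -0.081 to 0.040 for *pgl-3* and -0.039 to 0.029 for *znfx-1*. The cause was not tested for any of these changes.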
